A study of Mus musculus with 10 samples.

Results

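Chemokines are small secreted proteins that guide leukocytes along a gradient, and they act through receptors of the G protein-coupled family. The genes described here are the mouse chemokines and chemokine receptors of a whole-genome array, chosen by name alone: array gene names made of Ccl, Cxcl, Cx3cl or Xcl with a number for the ligands, and of Ccr, Cxcr, Cx3cr or Xcr with a number, or Ccrl1 or Ccrl2, for the receptors. The rule gave 58 of the 35527 gene names on the array, 37 ligands and 21 receptors, on 72 probes. Of these, 48 were bright enough in aorta to be tested, 31 ligands and 17 receptors.

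The arrays held RNA of the infrarenal aorta of male C57BL/6J mice aged 10 weeks, taken 7 days after surgery. In the PPE group (5 mice), the aorta was infused for 5 min at 100 mmHg with type I porcine pancreatic elastase (PPE) at 1.5 U per mL, which damages elastin and is used as a model of abdominal aortic aneurysm. In the sham group (5 mice), saline was infused in place of elastase. Each array carried 500 ng of RNA from 1 mouse in the red dye (Cy5) against a universal mouse reference RNA in the green dye (Cy3), with no dye swap, so each value is a log2 ratio of aorta over reference. The model holds an enzymatic injury at 1 time point in wild-type males, and the study's methods state that some arrays were removed for poor hybridization or as outliers, without saying which.

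Ligands of the CXC family that carry a glutamate-leucine-arginine motif attract neutrophils through CXCR2, while CXCL9, CXCL10 and CXCL11 are induced by interferons and attract activated T and NK cells through CXCR3. CCL2 and its relatives bring monocytes out of blood through CCR2, and CCL3, CCL4 and CCL5 are inflammatory chemokines that draw monocytes, macrophages and T cells. CXCL12 holds or recruits CXCR4-bearing cells, and CCL19, CCL21 and CXCL13 organise lymphoid tissue. Atypical receptors bind chemokines without the usual G protein signal and clear them from the tissue.

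The promoters of the CXC ligands described next are shown because these genes rose together and because several carry the same motif. They were thus chosen partly for holding a match. Promoter sequence from RefSeq (build GRCm38.p6) could be matched for 43 of the 58 genes, and the 250 bases before the start of each were searched on both strands for the kappaB motif, for the core of the interferon-stimulated response element (GAAA repeated after a gap of 2 bases) and for the AP-1 motif (TGANTCA). In the sequences below, given 5′ to 3′ on the gene's strand, capitals mark matches to any of the 3 motifs. The window of Cxcl1 lies at chr5:90890995-90891244 on the + strand, Cxcl2 at chr5:90903649-90903898 on the + strand, Cxcl3 at chr5:90785851-90786100 on the + strand, Cxcl10 at chr5:92348890-92349139 on the - strand and Ccr2, the receptor with the largest fitted rise, at chr9:124101933-124102182 on the + strand.
Cxcl1: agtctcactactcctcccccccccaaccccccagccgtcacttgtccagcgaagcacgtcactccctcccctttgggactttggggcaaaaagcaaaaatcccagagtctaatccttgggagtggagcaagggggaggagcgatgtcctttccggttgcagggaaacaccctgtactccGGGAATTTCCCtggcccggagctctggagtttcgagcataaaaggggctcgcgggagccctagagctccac
Cxcl2: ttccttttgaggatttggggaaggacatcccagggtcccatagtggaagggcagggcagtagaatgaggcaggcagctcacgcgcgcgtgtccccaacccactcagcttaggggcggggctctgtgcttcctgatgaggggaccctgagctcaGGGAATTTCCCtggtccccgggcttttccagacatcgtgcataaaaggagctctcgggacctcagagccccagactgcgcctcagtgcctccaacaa
Cxcl3: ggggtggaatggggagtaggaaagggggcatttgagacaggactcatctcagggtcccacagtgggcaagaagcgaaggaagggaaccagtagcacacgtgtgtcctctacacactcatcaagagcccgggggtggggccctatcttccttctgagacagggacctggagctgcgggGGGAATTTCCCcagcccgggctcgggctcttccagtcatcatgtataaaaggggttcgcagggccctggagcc
Cxcl10: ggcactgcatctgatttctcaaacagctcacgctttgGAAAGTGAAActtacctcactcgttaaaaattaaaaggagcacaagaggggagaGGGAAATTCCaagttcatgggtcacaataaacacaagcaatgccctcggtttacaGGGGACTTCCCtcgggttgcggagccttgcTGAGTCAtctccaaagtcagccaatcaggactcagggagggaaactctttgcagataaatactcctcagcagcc
Ccr2: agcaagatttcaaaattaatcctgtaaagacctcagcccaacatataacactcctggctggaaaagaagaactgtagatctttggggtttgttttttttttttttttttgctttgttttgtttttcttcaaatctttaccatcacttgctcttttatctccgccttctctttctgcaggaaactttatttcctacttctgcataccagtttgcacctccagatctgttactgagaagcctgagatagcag

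The promoters of Cxcl1, Cxcl2 and Cxcl3 each hold the letters GGGAATTTCCC, which match the kappaB motif on both strands and begin 71, 97 and 73 bases before the start. The promoter of Cxcl10 holds kappaB matches at 2 places, an AP-1 match and a match to the interferon-stimulated core, and that of Ccr2 holds no match. The promoters of Cxcl9 and Cxcl12, which also rose, hold no match either and are not shown. No promoter was matched for Cxcl5. Over all the genes matched, kappaB letters stood in 11 of 43 promoters, among them 8 of the 25 genes that rose and 1 of the 10 other tested genes, where 8.23% of 27025 gene symbols had a match. Promoters were matched for only 25 of the 33 genes that rose. Cxcl1, Cxcl2 and Cxcl3 are close relatives with the same letters, so their matches are not separate occurrences. Whether these shares differ from that of all symbols was not tested. The interferon-stimulated core stood in 3 of 43 against 3.46% of all symbols, and AP-1 in 5 of 43 against 7.82%. A match is a description of letters, not of a site in use.

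Of all 22520 genes tested with limma at an adjusted p under 0.01, 13.8% were higher and 9.96% lower in PPE than in sham aortae (3116 and 2243 genes). Among the 48 chemokine and receptor genes, 33 were higher (68.8%) and 4 lower (8.33%), and the 11 others did not pass the test. Of the 33, 4 were above background on all PPE arrays and no sham array, as were 101 of the 22520 genes. Such genes entered the test only through their PPE arrays, so their inclusion depended on being bright in PPE. Cxcr2, Ccr3, Ccr9, Ccl17, Cxcr4, Xcl1, Ccl4 and Ccr6 were above background on 1 to 4 sham arrays and all 5 PPE arrays. They too needed PPE arrays to reach the 5 of 10 that the test required. The median log2 fold change was 2.02 over these 48 genes and 0.02 over all genes tested. Among the ligands, 22 of 31 rose and 2 fell, and among the receptors, 11 of 17 rose and 2 fell. The ranges of the 5 PPE and 5 sham arrays did not overlap for 32 genes in the higher direction and 3 in the lower, against 14.9% and 10.5% of all genes tested. Centring each array on its median in place of the loess correction raised the median log2 fold change of all genes to 0.41 and left 408 genes higher and 8 lower, of which 15 and 0 were chemokine or receptor genes. The 15 were Cxcl5, Cxcl10, Ccl7, Ccl4, Ccl5, Cxcl12, Ccl9, Ccl12, Ccl2, Cxcl1, Ccr2, Cx3cr1, Cxcr2, Cxcr3 and Cxcr4. In RNA of whole aorta, more cells of a type and more RNA per cell cannot be told apart.

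**Figure D1:**
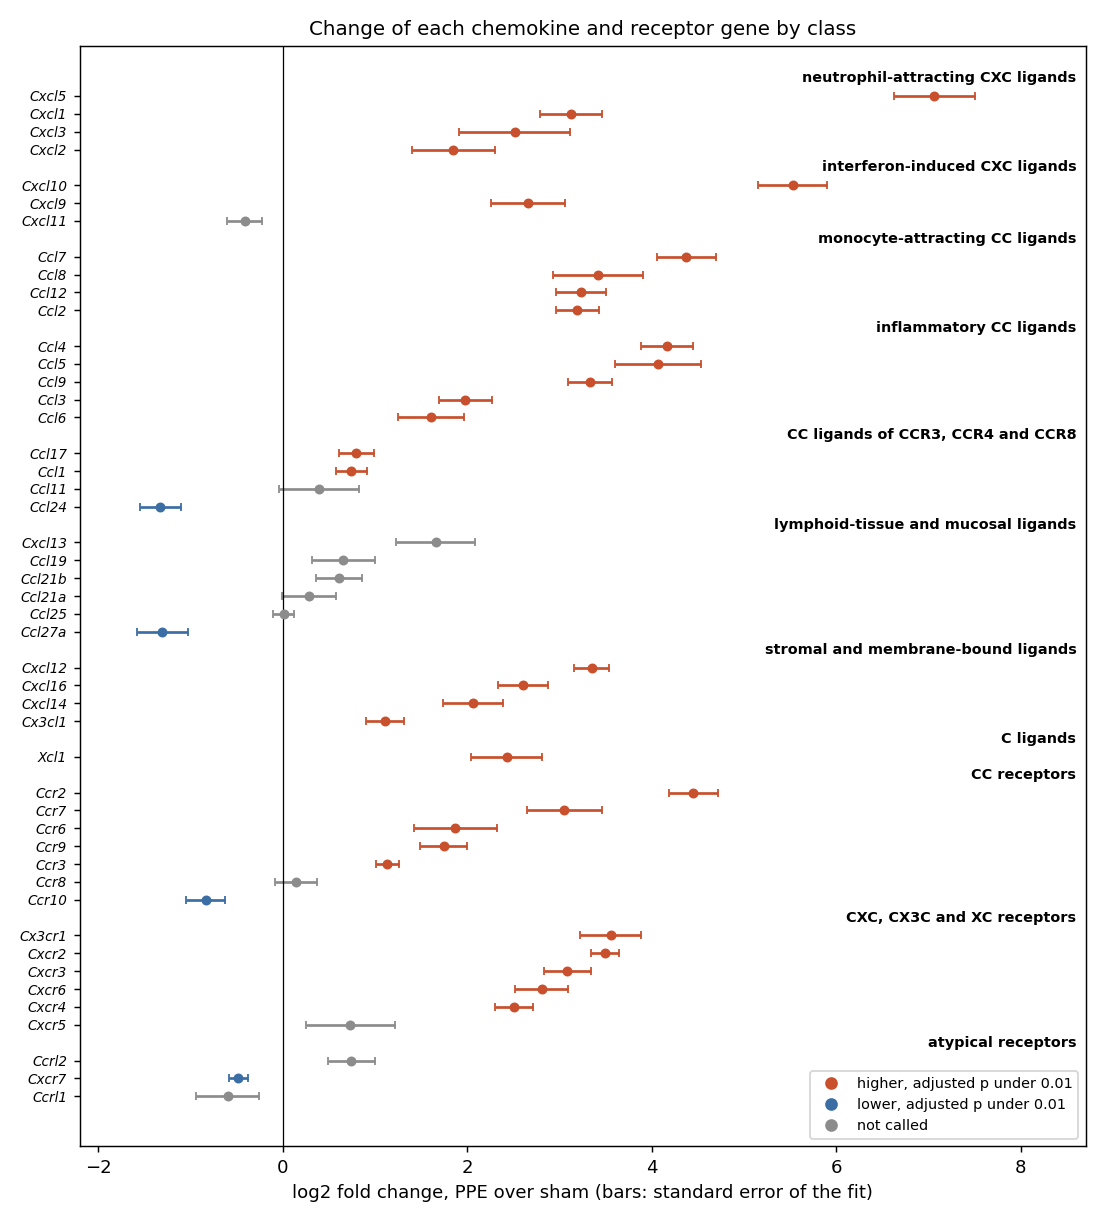
Log2 fold change of PPE over sham for 47 of the 48 tested genes (horizontal axis; points are the fitted difference, bars its standard error, n = 5 arrays a group), grouped by class. The ligands that attract neutrophils and monocytes and the inflammatory CC ligands all lie to the right of 0, from 1.61 (Ccl6) to 7.06 (Cxcl5), while the lymphoid-tissue and mucosal ligands lie between -1.31 and 1.66 and only Ccl27a was called.

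All 4 tested ligands of the neutrophil-attracting CXC group rose, but 3 of them entered the test only through their PPE arrays. Cxcl5, made mainly by epithelial and stromal cells, had log2 ratios of -5.37, -3.82, -3.38, -4.84 and -2.92 on sham arrays 1 to 5 and of 3.22, 2.18, 3.28, 3.55 and 2.74 on PPE arrays 1 to 5. Its red signal was not above background on any sham array and was above it on every PPE array, so the rise is a bound of at least 95.5-fold (fitted log2 fold change 7.06 ± 0.44 (SE), adjusted p = 8.57e-07). Cxcl1 had log2 ratios of -4.41, -3.49, -3.51, -4.14 and -2.61 in sham and -0.69, -0.99, -0.37, 0.31 and -0.80 in PPE aortae, a rise of 3.12 ± 0.33 (SE) on the log2 scale (adjusted p = 2.98e-05). For both genes the groups stood apart, with the sham values spread more widely than the PPE values.

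Cxcl3 and Cxcl2, close relatives of Cxcl1, were not above background on any sham array either. Cxcl3 had log2 ratios of -0.18, -0.12, -0.079, -0.18 and 0.22 in sham and 4.60, 1.47, 1.99, 3.48 and 0.69 in PPE aortae, a rise with a bound of 5.01-fold in the scaled red channel (adjusted p of the ratio fit = 0.00666). Cxcl2 had log2 ratios of -0.42, -0.13, -0.048, -0.28 and -0.13 in sham and 2.91, 0.65, 1.10, 2.93 and 0.65 in PPE aortae, a rise with a bound of 3.1-fold in the scaled red channel (adjusted p of the ratio fit = 0.00764). Other settings gave smaller rises than these bounds. The log2 fold change was 1.93 for Cxcl3 and 1.43 for Cxcl2 in the red channel alone, and 2.10 and 1.52 after median centring. On both probes PPE 1 and PPE 4 were far above the other PPE arrays, and all PPE values were above all sham values. Their calls were close to the threshold: leaving out any of 7 arrays for Cxcl3 (each sham array, PPE 3 or PPE 4) or any of 8 for Cxcl2 (each sham array, PPE 1, PPE 3 or PPE 4) took the adjusted p to between 0.0106 and 0.02. Both calls were lost with slide as a fixed block (adjusted p = 0.0135 for Cxcl3 and 0.0252 for Cxcl2), and that of Cxcl2 with the replicate number (adjusted p = 0.0115) or scan day (adjusted p = 0.0105) as a block. Cxcl15, the other ligand of the group, was not above background on any array.

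Cxcr2, the receptor of these ligands and the main chemokine receptor of mouse neutrophils, had log2 ratios of 0.011, 0.21, 0.27, 0.12 and 0.19 in sham and 4.14, 3.38, 3.52, 3.81 and 3.43 in PPE aortae. It was above background on 1 sham array and all 5 PPE arrays, so its entry to the test also depended on its PPE arrays. Cxcr2 rose by 3.49 ± 0.15 (SE) on the log2 scale (adjusted p = 1.54e-07), with a narrow range in each group. Cxcr1 was above background on 4 PPE arrays and no sham array, too few for the test. Markers of neutrophils moved the same way: 7 of 9 tested were higher, among them S100a8 (5.53), Fpr1 (3.33), S100a9 (3.26) and Camp (3.18), while Elane and Csf3r (0.59 and -0.075) did not pass the test. The mean log2 ratio of these markers lay between 0.40 and 0.56 on the sham arrays and between 2.63 and 3.86 on the PPE arrays, highest on PPE 4. Their part in the rise of the ligands and Cxcr2 was not tested.

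**Figure D2:**
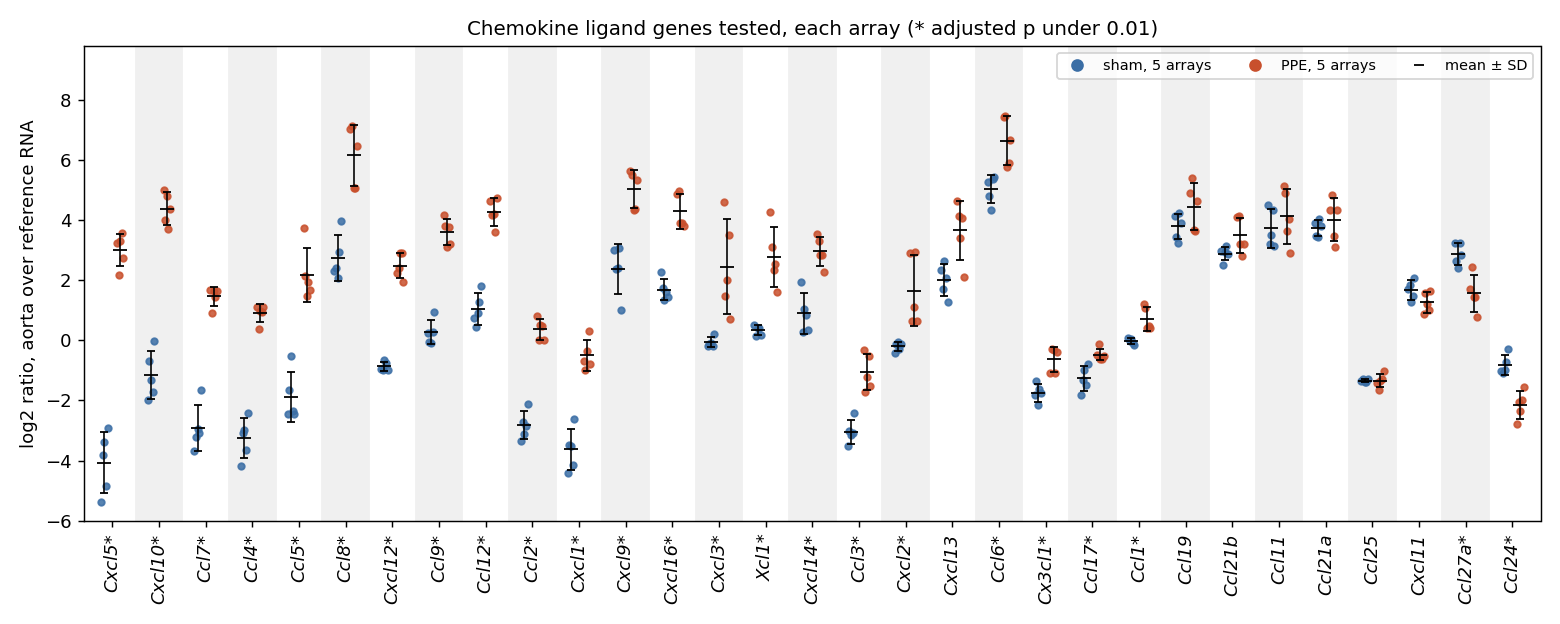
Log2 ratio of aorta over reference RNA (vertical axis) for each tested ligand on each of 5 sham and 5 PPE arrays, with mean and SD, ordered by log2 fold change; ratios compare arrays within a gene, not genes with each other. The PPE points lie above all sham points for the 22 ligands called higher, from Cxcl5 to Ccl1, and below or partly below them for Ccl24 and Ccl27a.

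All 4 monocyte-attracting CC ligands rose by between 3.19 and 4.37 on the log2 scale. Ccl7, a ligand of CCR2 and CCR3, had log2 ratios of -3.68, -3.22, -2.96, -3.09 and -1.64 in sham and 1.68, 0.89, 1.64, 1.43 and 1.63 in PPE aortae (4.37 ± 0.32 (SE), adjusted p = 2.33e-06). Ccl2, the principal CCR2 ligand, had log2 ratios of -3.34, -2.73, -3.13, -2.85 and -2.11 in sham and 0.81, 0.02, 0.50, 0.46 and 0.0081 in PPE aortae (3.19 ± 0.23 (SE), adjusted p = 2.14e-06). On both genes sham 5 was the highest sham array and still lay well under the lowest PPE array.

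Ccl12, a further mouse ligand of CCR2, had log2 ratios of 0.74, 0.44, 0.90, 1.26 and 1.81 in sham and 4.64, 4.18, 4.20, 3.58 and 4.72 in PPE aortae (3.23 ± 0.27 (SE), adjusted p = 5.67e-06). Ccl8, paired here with Ccr1 and Ccr8 and not with Ccr2, had log2 ratios of 2.29, 2.40, 2.06, 2.93 and 3.97 in sham and 7.01, 7.11, 5.06, 5.07 and 6.47 in PPE aortae (3.42 ± 0.48 (SE), adjusted p = 0.000218). Ccl8 was the most variable of the 4, with PPE 3 and PPE 4 about 1 log2 unit above sham 5 and the other PPE arrays higher still.

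Ccr2, which marks inflammatory monocytes, had the largest fitted rise among the receptors, though not in the red channel alone, where Cx3cr1 was above it, nor in the scanner software's log ratios, where 8 receptors were, from Ccr3 (2.45) to Cxcr2 (4.04). Ccr2 had log2 ratios of 2.95, 1.92, 1.98, 2.18 and 1.91 in sham and 7.35, 6.99, 6.23, 6.36 and 6.25 in PPE aortae, a 21.8-fold difference (4.45 ± 0.26 (SE), adjusted p = 6.65e-07). All 10 arrays were above background in the red channel, with sham 1 the highest of its group, but the reference RNA was above background on only 4 arrays. In those log ratios of the scanner software the difference was 2.07 (adjusted p = 0.013), and in the red channel alone it was 3.87 (adjusted p = 3.03e-08). Cx3cr1, the receptor of patrolling monocytes and resident macrophages, had log2 ratios of 2.42, 1.94, 1.91, 2.35 and 2.21 in sham and 5.99, 6.34, 5.10, 4.63 and 6.54 in PPE aortae (3.55 ± 0.33 (SE), adjusted p = 1.1e-05). A second probe for Cx3cr1 gave 2.78. In the scanner software's log ratios Cx3cr1 differed by 1.99 (adjusted p = 0.0116), and in the red channel alone by 4.01 (adjusted p = 4.82e-07). Its ligand Cx3cl1, a membrane-bound chemokine of endothelium and smooth muscle, rose by 1.11 ± 0.21 (SE) (adjusted p = 0.00141), a call lost with slide as a fixed block (1.08, adjusted p = 0.0222).

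Markers of macrophages and monocytes were higher for 8 of 9 tested, led by Emr1 (3.42), Cd14 (3.30), Msr1 (2.85) and Cd68 (2.33), with Mertk at -0.30 and not called. Their mean log2 ratio ran from 0.86 to 1.25 on the sham arrays and from 2.63 to 3.71 on the PPE arrays. All 9 were above background on every array. Their part in the rise of the CCR2 axis was not tested.

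All 5 ligands of the inflammatory CC group rose. Ccl4 had log2 ratios of -4.17, -3.09, -2.99, -3.64 and -2.43 in sham and 1.10, 0.38, 0.96, 0.95 and 1.12 in PPE aortae (4.16 ± 0.29 (SE), adjusted p = 1.46e-06). Ccl5, made by activated T and NK cells as well as platelets and macrophages, had log2 ratios of -2.46, -1.64, -0.52, -2.36 and -2.46 in sham and 3.72, 2.12, 1.45, 1.95 and 1.66 in PPE aortae (4.07 ± 0.47 (SE), adjusted p = 4.99e-05). The sham array nearest to the PPE range was sham 5 for Ccl4 and sham 3 for Ccl5, and PPE 1 was far above the other PPE arrays for Ccl5.

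Ccl9, a mouse CCR1 ligand of myeloid cells, had log2 ratios of 0.23, -0.046, -0.077, 0.29 and 0.93 in sham and 4.15, 3.79, 3.11, 3.75 and 3.19 in PPE aortae (3.33 ± 0.24 (SE), adjusted p = 1.92e-06). Ccl3, a ligand of CCR1, and Ccl6, a CCR1 ligand of macrophages, rose by 1.98 ± 0.28 (SE) and 1.61 ± 0.36 (SE) (adjusted p = 0.000238 and 0.00446). For Ccl6 the adjusted p passed the threshold by little, and it was between 0.0103 and 0.0135 without sham 2, sham 3, PPE 1 or PPE 2. In the scanner software's log ratios Ccl6 differed by 0.83 (adjusted p = 0.139) and in the red channel alone by 2.75 (adjusted p = 8.63e-06).

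Ccr1, a receptor of this group, was above background on 1 PPE array and no sham array.

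**Figure D3:**
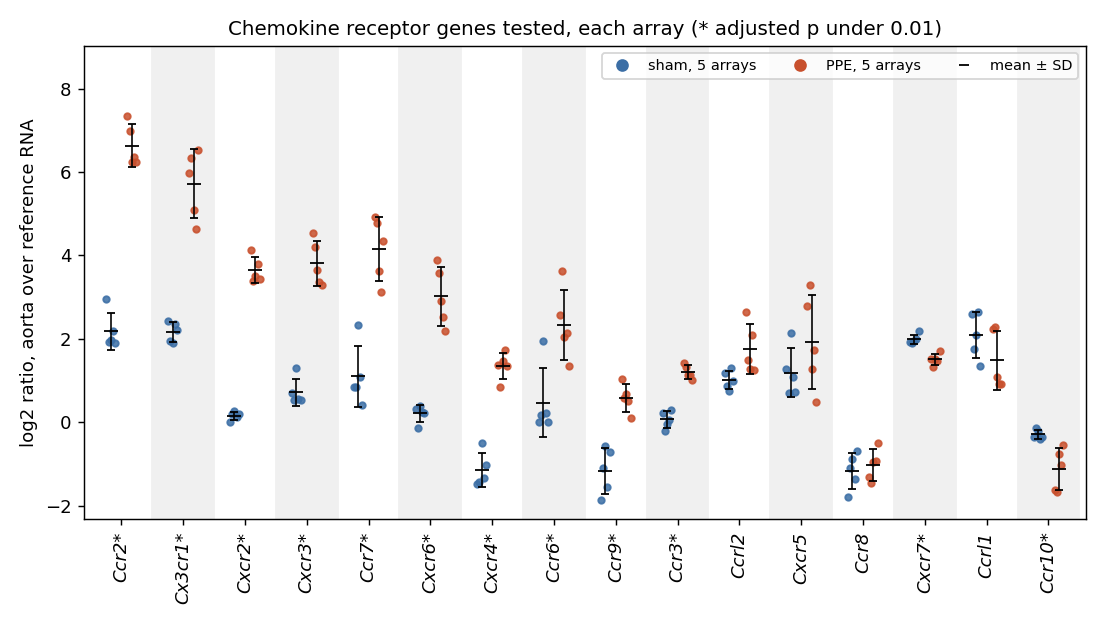
Log2 ratio of aorta over reference RNA (vertical axis) for 16 of the 17 tested receptors on each of 5 sham and 5 PPE arrays, with mean and SD, ordered by log2 fold change. Sham and PPE points stand apart for 9 of the 10 receptors called higher that are plotted and overlap for Ccr6, where sham 3 lies among the PPE arrays.

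Of the interferon-induced CXC ligands, 2 of 3 rose. Cxcl10 had log2 ratios of -2.0, -0.71, -1.32, -1.73 and -0.021 in sham and 5.01, 3.99, 4.79, 3.68 and 4.38 in PPE aortae, a 46.1-fold difference (5.53 ± 0.37 (SE), adjusted p = 1.4e-06). Cxcl9 rose by 2.66 ± 0.40 (SE) (adjusted p = 0.000332), and by 3.34 on its second probe. In the scanner software's log ratios Cxcl9 differed by 0.60 (adjusted p = 0.311), and in the red channel alone by 3.53 (adjusted p = 6.65e-07). Cxcl11 stood at -0.41 ± 0.19 (SE) (adjusted p = 0.124), at -0.08 on its second probe, and at 0.58 after median centring, so it has no settled direction. The RefSeq table lists Cxcl11 as a transcribed pseudogene in this strain's assembly. Its tested probe had a mean log2 brightness over both dyes of 16.5, against 11.2 for the second probe. What the brighter probe reads was not tested.

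Cxcr3, the receptor of these ligands on activated T and NK cells, had log2 ratios of 0.70, 0.53, 1.30, 0.55 and 0.55 in sham and 4.55, 4.20, 3.65, 3.36 and 3.29 in PPE aortae (3.08 ± 0.25 (SE), adjusted p = 4.42e-06). Cxcr6, found on effector T cells and NKT cells, had log2 ratios of 0.33, -0.13, 0.40, 0.24 and 0.23 in sham and 3.89, 3.57, 2.90, 2.54 and 2.20 in PPE aortae (2.81 ± 0.29 (SE), adjusted p = 2.15e-05), and its ligand, the membrane-bound chemokine Cxcl16, rose by 2.60 ± 0.27 (SE) (adjusted p = 2.38e-05). Sham 3 was the highest sham array for both receptors. Xcl1, made by T and NK cells and active on cross-presenting dendritic cells, rose by 2.43 ± 0.39 (SE) (adjusted p = 0.000482) and was above background on 3 sham arrays, while its receptor Xcr1 was above background on 2 PPE arrays and no sham array.

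Markers of T cells were higher for 6 of 9 tested, led by Cd3d (2.97), Lck (2.73) and Cd3g (2.36), and markers of NK cells for 6 of 8, led by Gzma (2.87) and Klrb1c (2.16). Of these 6, Klrb1c was above background on 3 sham arrays, and Eomes and Klrk1 on no sham array and all 5 PPE arrays. The mean log2 ratio of the T cell markers ran from -0.68 to 0.30 on the sham arrays, highest on sham 3, and from 0.94 to 2.03 on the PPE arrays, highest on PPE 2. That of the NK cell markers ran from 0.12 to 0.55 and from 1.31 to 3.21. Their part in the rise of Cxcr3, Cxcr6 and Xcl1 was not tested.

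Cxcl12, a stromal chemokine made by fibroblasts and endothelium, had log2 ratios of -0.96, -0.99, -0.66, -0.77 and -0.99 in sham and 2.22, 2.42, 2.89, 2.90 and 1.94 in PPE aortae, a 10.2-fold difference (3.35 ± 0.19 (SE), adjusted p = 4.51e-07). A second probe for Cxcl12 gave 2.56. Cxcr4, its signalling receptor, above background on 3 sham arrays and all 5 PPE arrays, had log2 ratios of -1.47, -1.43, -0.50, -1.34 and -1.02 in sham and 1.38, 0.85, 1.47, 1.72 and 1.34 in PPE aortae (2.51 ± 0.21 (SE), adjusted p = 5.28e-06). Cxcr7, an atypical receptor of endothelium and stroma that takes up CXCL12, had log2 ratios of 1.92, 1.91, 1.96, 1.99 and 2.18 in sham and 1.51, 1.32, 1.52, 1.48 and 1.71 in PPE aortae, lower by a fitted log2 fold change of -0.48 ± 0.10 (SE) (adjusted p = 0.00349). The ligand and its signalling receptor were thus higher and the atypical receptor lower in PPE aortae. The Cxcr7 difference was small: its adjusted p was 0.0104 without PPE 4, and after median centring its value was 0.17 (adjusted p = 0.856). Cxcl14, a further stromal chemokine, rose by 2.06 ± 0.32 (SE) (adjusted p = 0.00043). Fibroblast markers were higher for 3 of 7 tested (Col1a1 2.04, Col1a2 1.21, Pdgfra 0.64) and endothelial markers for 0 of 8, their medians being 0.64 and 0.13. The other fibroblast markers, Lum (1.22), Dpt (-0.0029), Dcn (-0.25) and Pi16 (-0.53), did not pass the test.

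Among ligands of the lymphoid-tissue and mucosal group, 0 of 6 tested rose and 1 fell. Ccl19, Ccl21a and Ccl21b, the CCR7 ligands that draw dendritic cells and naive T cells into lymph nodes, had log2 fold changes of 0.66 ± 0.34 (SE), 0.28 ± 0.30 (SE) and 0.61 ± 0.25 (SE) and did not pass the test. Their genes have near-identical copies, so a probe may read more than 1 of them. In the red channel alone Ccl19 was higher by 1.92 (adjusted p = 3.12e-05). Cxcl13, the B cell attractant, stood at 1.66 ± 0.43 (SE) with an adjusted p of 0.0103, just short of the threshold. It passed under 8 of 25 alternatives, among them slide as a fixed block (1.75, adjusted p = 0.00252) or as a random block (1.64, adjusted p = 0.00241), the replicate number as a block (1.66, adjusted p = 0.0025), scan day as a block (1.48, adjusted p = 0.00958) and leaving out PPE 5 (2.05, adjusted p = 0.000368). In the scanner software's log ratios it stood at 0.035 (adjusted p = 0.962), with the reference above background on 4 arrays. Cxcr5, its receptor, stood at 0.73 ± 0.48 (SE) (adjusted p = 0.281), and B cell markers were called for 0 of 5 tested, with a median of 0.35. Ccl28, a mucosal ligand of CCR10, was above background on 2 sham arrays and 1 PPE array, and the mucosal chemokine Cxcl17 on 1 PPE array, too few for the test.

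Ccr7, the receptor of these CCR7 ligands, had log2 ratios of 0.84, 0.85, 2.34, 1.08 and 0.41 in sham and 4.91, 4.77, 3.63, 3.12 and 4.35 in PPE aortae (3.05 ± 0.40 (SE), adjusted p = 0.000137). It is carried by mature dendritic cells and naive T cells, and 5 of 8 tested dendritic cell markers were higher (Itgax 3.29, Clec9a 2.44, Flt3 2.42, Fscn1 1.65 and Batf3 1.47). The other dendritic cell markers, Cd209a (1.02), Zbtb46 (-0.24) and Siglech (-0.30), did not pass the test. Ccr9, a receptor of gut-homing lymphocytes and plasmacytoid dendritic cells, had log2 ratios of -1.85, -1.10, -0.56, -1.56 and -0.72 in sham and 1.04, 0.59, 0.69, 0.51 and 0.11 in PPE aortae (1.74 ± 0.25 (SE), adjusted p = 0.000265). Ccr9 was above background on 2 sham arrays and all 5 PPE arrays, and its ligand Ccl25 stood at 0.0084 ± 0.12 (SE). A second Ccr9 probe, above background on 0 sham and 3 PPE arrays and so too dim for the test, gave 0.52. Ccr6, a receptor of B cells and interleukin-17-producing T cells, had log2 ratios of 0.015, 0.17, 1.95, 0.23 and -0.0028 in sham and 2.56, 3.62, 2.05, 2.13 and 1.34 in PPE aortae (1.87 ± 0.45 (SE), adjusted p = 0.007). Sham 3 lay above PPE 5 for Ccr6, and its adjusted p rose to between 0.0126 and 0.0201 when any of 8 arrays (all but sham 3 and PPE 5) was left out. The Ccr6 call was also lost with slide as a fixed block (1.85, adjusted p = 0.0358) and with scan day as a block (1.77, adjusted p = 0.010007). Ccl20, its ligand, was not above background on any array.

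Sham 3 was also the highest sham array for Ccr7, Cxcr5 and Cxcr3, and PPE 2 the highest PPE array for Ccr6 and Cxcr5. On the same arrays the mean log2 ratio of the B cell markers was 0.83 on sham 3 and 1.70 on PPE 2, against -0.42 to -0.15 on the other sham arrays and -0.49 to 0.17 on the other PPE arrays; the part of B cells in these receptor values was not tested. Without sham 3 and PPE 2 together, 29 of the 48 genes were higher and 2 lower. Ccr6, Ccr7 and Cxcr3 kept their calls in that fit, and Cxcl3, Ccl6, Ccl17, Ccl1, Cxcr7 and Ccr10 lost theirs.

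The ligands grouped here under CCR3, CCR4 and CCR8 act on eosinophils, type 2 helper and regulatory T cells. This group was mixed, with 2 of 4 tested higher and 1 lower. Other listed ligands of these receptors were counted in other groups and rose: Ccl5 (4.07) and Ccl7 (4.37) for CCR3, and Ccl8 (3.42) for CCR8. Ccl24, an eosinophil attractant made by alternatively activated macrophages, had log2 ratios of -1.02, -1.08, -0.99, -0.74 and -0.29 in sham and -2.79, -2.05, -2.37, -2.0 and -1.55 in PPE aortae and was lower by a fitted log2 fold change of -1.32 ± 0.23 (SE) (adjusted p = 0.000799). Ccl11, the other tested CCR3 ligand of this group, stood at 0.39 ± 0.43 (SE) (adjusted p = 0.533). Ccl17, a CCR4 ligand of dendritic cells, rose by 0.80 ± 0.19 (SE) (adjusted p = 0.00634), a call lost when any of 8 arrays (all but sham 3 and sham 5) was left out (adjusted p from 0.0103 to 0.0193) and with slide as a fixed block (0.92, adjusted p = 0.0147). It was above background on 2 sham arrays and all 5 PPE arrays.

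Ccl1, a CCR8 ligand, was not above background on any sham array but was so on each PPE array. Its log2 ratios were 0.057, -0.011, 0.036, -0.091 and -0.18 in sham and 1.20, 1.06, 0.41, 0.48 and 0.40 in PPE aortae, a rise with a bound of 1.58-fold in the scaled red channel (adjusted p of the ratio fit = 0.00499), with PPE 1 and PPE 2 above the other PPE arrays. After median centring its log2 fold change was 0.49 (adjusted p = 0.27), a smaller rise than the bound. Without sham 2, sham 4, sham 5 or PPE 2 the adjusted p was between 0.0122 and 0.0141. Ccr8 stood at 0.14 ± 0.23 (SE) and was not called. Ccr3, the eosinophil receptor, had log2 ratios of 0.23, -0.21, -0.028, 0.057 and 0.30 in sham and 1.41, 1.34, 1.13, 1.13 and 1.02 in PPE aortae and rose by 1.13 ± 0.13 (SE) (adjusted p = 3.93e-05), though only 2 sham arrays were above background. Ccl22, Ccl26 and Ccr4 were too dim to be tested.

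The 2 remaining genes that were lower form a ligand and receptor pair of skin. Ccl27a, an epithelial chemokine, had log2 ratios of 3.23, 2.65, 2.41, 3.23 and 2.82 in sham and 1.71, 2.45, 1.43, 1.45 and 0.77 in PPE aortae, lower by a fitted log2 fold change of -1.31 ± 0.28 (SE) (adjusted p = 0.00322). Its other probes gave -1.27 and -0.57, and the gene has a near-identical copy. PPE 2 overlapped the sham range, and without sham 4 the adjusted p was 0.0109. Ccr10, its receptor, had log2 ratios of -0.35, -0.13, -0.22, -0.39 and -0.36 in sham and -1.61, -1.68, -0.77, -1.02 and -0.55 in PPE aortae, lower by a fitted log2 fold change of -0.83 ± 0.21 (SE) (adjusted p = 0.0089), and was dim, above background on 4 sham and 3 PPE arrays. The Ccr10 call was lost without any of 8 arrays (all but PPE 3 and PPE 5), with adjusted p from 0.0155 to 0.0248, and with the replicate number as a block (adjusted p = 0.0137). Smooth muscle markers, which define the aortic media, were lower for 6 of 8, 7 of the 8 being above background on every array (Tagln -2.95, Myocd -2.66, Acta2 -2.49 and Lmod1 -1.89), and their mean log2 ratio lay between 3.22 and 4.39 in sham and between 1.62 and 2.85 in PPE aortae, highest on PPE 2. Adipocyte markers were lower for 1 of 6 (Ucp1 -2.94). The part of these tissues in the lower values of Ccl27a, Ccr10 and Cxcr7 was not tested.

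Of the atypical receptors, Ccrl2, a receptor that presents chemerin and is induced in activated macrophages, stood at 0.74 ± 0.26 (SE) (adjusted p = 0.0409), and Ccrl1, the scavenger of CCL19, CCL21 and CCL25, at -0.60 ± 0.35 (SE) (adjusted p = 0.212). In the red channel alone the Ccrl1 difference was -1.02 (adjusted p = 0.000484). With Cxcr7, 0 of 3 atypical receptors were higher and 1 was lower, a call that median centring removed. Of the signalling receptors, 11 of 14 were higher and 1 was lower, and the difference between the kinds of receptor was not tested.

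Matching ligands with receptors gave 47 textbook pairs, of which 34 had both genes tested, over 16 receptors. In 17 pairs both genes were higher. In 6 the receptor was higher and the ligand was not called, in 2 the ligand was higher and the receptor was not called, and in 5 neither was called. In the remaining 4 pairs a gene was lower. Ccr10 and Ccl27a were both lower, Cxcr7 was lower with Cxcl12 higher and with Cxcl11 not called, and Ccl24 was lower with Ccr3 higher. Of the 10 receptors that rose and had a tested ligand, 8 had at least 1 ligand that rose, the others being Ccr7 and Ccr9. The pairs share genes, so they are not independent of each other. With 64.7% of tested receptors and 71.0% of tested ligands higher, many pairs would have both genes higher without any matching. Whether ligands and receptors rose together beyond these shares was not tested.

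**Figure D4:**
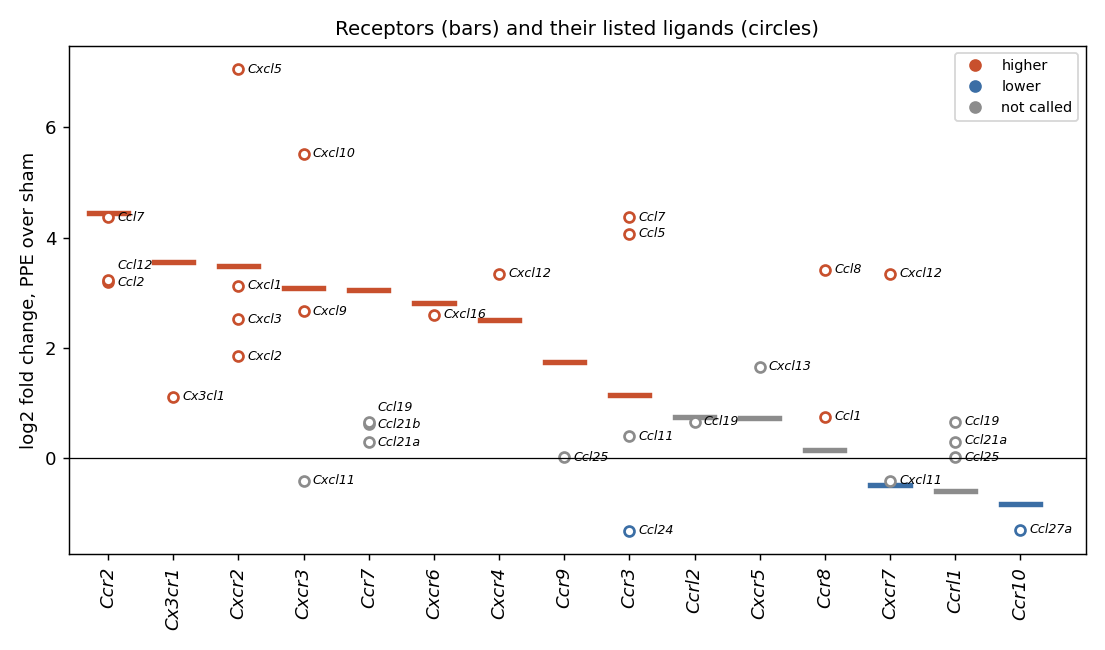
Log2 fold change of PPE over sham (vertical axis) for 15 of the 16 receptors (bars, ordered by their change) and for their tested ligands (circles), coloured by call. For Ccr2, Cxcr2, Cxcr3, Cxcr4, Cxcr6, Cx3cr1 and Ccr3 at least 1 ligand is higher with the receptor, while the circles of Ccr7 and Ccr9 lie near 0.

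Many of the genes lie in clusters, given here by the first and last base of their probes in build mm9, whose exon is not stated in the files. On chr11:81850650-81990227 the probes of Ccl2, Ccl7, Ccl12, Ccl8 and Ccl1 were higher and that of Ccl11, which lies between Ccl7 and Ccl12, was not called. On chr11:83339296-83478111 all 5 genes (Ccl5, Ccl9, Ccl6, Ccl3 and Ccl4) were higher. On chr5:91190490-91334593 all 4 tested genes were higher (Cxcl5, Cxcl3, Cxcl1 and Cxcl2), with Cxcl15, which lies among them, too dim to test, and on chr5:92752191-92788626 Cxcl9 and Cxcl10 were higher and Cxcl11 was not called. The receptor cluster on chr9:123690334-124023007 had Ccr9, Cxcr6, Ccr3 and Ccr2 higher, while Xcr1 and Ccr1, which lie in the same stretch, were too dim to test. The cluster on chr4:41716345-42250164 had 0 higher and 1 lower of 4 (Ccl27a, Ccl21b, Ccl21a and Ccl19).

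Outside the name rule, 8 further genes tied to chemokines were tested, and 1 was higher and 1 lower. Cklf, a chemokine-like factor, rose by 1.72 ± 0.15 (SE) (adjusted p = 5.91e-06), and Pitpnm3, reported as a CCL18 receptor in human cells, was lower with a fitted value of -1.89 ± 0.42 (SE) (adjusted p = 0.00415). The platelet chemokines Pf4 and Ppbp stood at 0.51 and -0.22, the cytokine Mif at 0.57 and the decoy receptor Darc at 1.76 (adjusted p = 0.0126), none of them called. Platelet markers were higher for 0 of 6.

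Downstream of the receptors, 24 of 39 tested signalling genes were higher and 1 was lower, with a median log2 fold change of 1.35. Among the largest rises were those of Fgr (4.34 ± 0.25 (SE)), a Src-family kinase of myeloid cells, Rgs16 (3.80 ± 0.29 (SE)), which shortens G protein signalling, and Vav1 (3.49 ± 0.17 (SE)), an exchange factor of haematopoietic cells. Tln1, the integrin-linking protein talin, was lower at -0.71 ± 0.13 (SE) (adjusted p = 0.00169). Among the widely expressed G protein subunits, Gnai2 stood at 0.58 and Gnb1 at 0.93, both called, and Gnb2 at 0.27, not called. Several of these genes are themselves restricted to leukocytes, so their levels and leukocyte number cannot be told apart in whole aorta.

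The red signal was above background for between 37.6% (sham 5) and 65.8% (PPE 1) of spots an array. The arrays lay on 5 slides, 2 of which held both groups: sham 1, PPE 1 and PPE 2 on the first, and sham 2, sham 3, PPE 3 and PPE 4 on the second. Within each of these slides the difference had the sign of the fit for all 37 called genes. These arrays also went into the fit that made the calls, so the agreement is not a separate check. With slide as a fixed block, in which the arrays alone on their slide (sham 4, sham 5 and PPE 5) carry no weight, 29 of the 48 genes were higher and 4 lower. Cxcl3, Cxcl2, Ccr6, Cx3cl1 and Ccl17 lost their calls there, and Cxcl13 gained one. With slide as a random block 34 genes were higher and 4 lower. The first slide was the only one of its scan day, and with scan day as a block 32 genes were higher and 4 lower. For Ccr2 the difference was 4.22 within the first slide and 4.35 within the second, for Cxcl10 6.50 and 5.25, and for Ccr7 4.0 and 1.78.

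The choice of log ratio changed several calls. In the scanner software's log ratios 27 genes were higher and 4 lower, and the 6 lost calls included Ccr2, Cx3cr1, Cxcl9, Ccl6 and Ccr6. The reference was above background on all 10 arrays for Ccl6 and on 4 to 9 for the 4 others named. In the red channel alone 33 genes were higher and 5 lower, with Ccr6 the only lost call and Ccl19 and Ccrl1 gained. The cause of the differences between these settings was not tested.

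**Figure D5:**
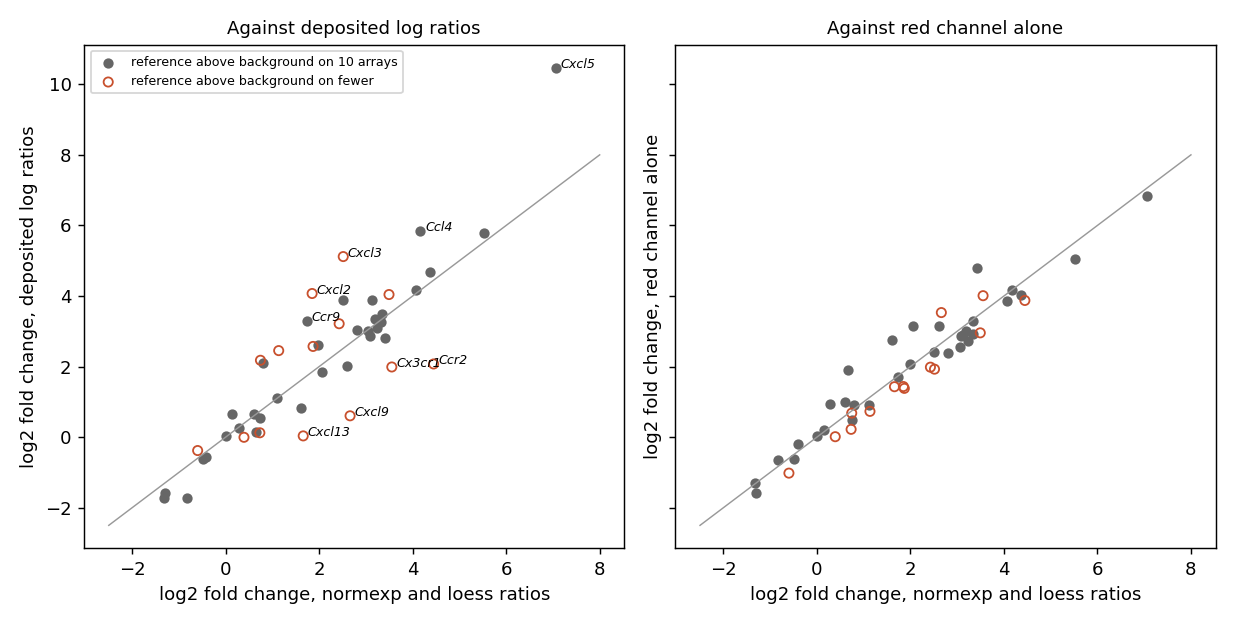
Log2 fold change from the scanner software's log ratios (left, vertical axis) and from the red channel alone (right, vertical axis) against the values reported here (horizontal axes) for 47 of the 48 tested genes, with the line of equality. Filled points had reference RNA above background on all 10 arrays and open circles on fewer. On the left Ccr2, Cx3cr1 and Cxcl9 lie below the line and Cxcl5, Cxcl3 and Cxcl2 above it, while on the right the largest distance from it is 1.37 (Ccl8).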

How the data were processed

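Aortic RNA of 10 mice (5 sham, 5 PPE; groups and numbers from the sample labels) was hybridized by the authors, with no dye swap, to 2-colour Agilent arrays of 62976 spots, scanned and read with Agilent Feature Extraction 10.7.3.1. The deposited scanner files give the mean intensity of each spot and its local background. They also give a log10 ratio of red over green, already corrected by the authors' software, and the deposited series table holds log2 ratios equal to log2 of the software's processed red over green signal for 100% of spots within 1e-04.

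Here, from the mean signal and median local background, the background was corrected with normexp (offset 50) and ratios were normalized by loess within arrays in limma 3.58.1 (R 4.3.3). Control spots and outlier spots (176 to 331 an array) had weight 0, and 0 spots were saturated. Spots of a probe were averaged, and probes entered the test only where at least 5 of 10 arrays had red signal well above background. A gene is its brightest tested probe. The groups were compared with limma's lmFit and eBayes, two-sided, with Benjamini-Hochberg adjustment over the 22520 genes tested, and called at an adjusted p under 0.01. The study's methods use a permutation-based test at the same rate, not run here. A fold bound sets the PPE mean in the red channel (after loess and quantile scaling of average brightness) against the higher of the lowest signal well above background and the probe's own signal on each sham array, and is open to dye bias. It is a bound only in that scaling, and other settings can give smaller rises. The fit was tested on simulated data with 200 changed genes. Figures were drawn with matplotlib.

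The genes, lists and pairs were chosen with earlier results of these data known, and no test of a list was made. The values of 1 receptor and 1 signalling gene are not reported here, though the counts include them. Otherwise, array values are given for the 15 called genes that moved most, all called receptors, all genes lower in PPE, and the 4 that rose most among those above background in 1 group only; pair partners are given by their fold change, and up to 4 called genes are named from each list. Genes named beyond that were chosen after their values were seen. Listed genes with no probe of that name were Ly6c2, Ly6g and Trac, and those too dim to test were Pax5, Blk, Cmklr1 and Elmo1. Each mouse is 1 sample, and 10 arrays limit the precision. The alternatives tried were other background offsets, centring, scaling, filters, ratios, probe averaging, slide, scan day and number blocks, and leaving out arrays.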

Additional observations from a re-analysis of the deposited data

Results flagged for a closer look

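In 6 of the 96 groups of 5 arrays (48 genes, sham or PPE), the highest or lowest log2 ratio stood far from the others relative to the group's whole range. Chance alone gives about 1 in 20 such groups. For Ccr2, sham 1 was highest at 2.95, the next sham array being at 2.18. For Cxcr3, sham 3 was highest at 1.30 (next 0.70). For Ccr6, sham 3 was highest at 1.95 (next 0.23). For Cxcl3, sham 5 was highest at 0.22 (next -0.08), where no sham array was above background. For Ccl4, PPE 2 was lowest at 0.38 (next 0.95). For Ccl17, PPE 2 was highest at -0.14 (next -0.49).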

How the results depend on the processing

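Over 25 alternatives, 13 of the 37 called genes kept their call in each that tested them, and 23 kept it in all but median centring. In the 10 fits that left out 1 array, 28 kept it. Those fits called 27 to 33 of the 48 genes higher and 2 to 4 lower (ligands 17 to 22 and 1 to 2, receptors 10 to 11 and 0 to 2), 24 to 26 and 1 of the signalling genes, 29 to 35 and 0 of the 48 tested leukocyte markers, and 2512 to 3615 and 1754 to 2352 of all genes. Median centring called 408 higher and 8 lower of all genes, 15 and 0 of the chemokine and receptor genes (10 and 0 ligands, 5 and 0 receptors), 9 and 0 of the signalling genes and 7 leukocyte markers higher. It turned Cxcl11 to 0.58 and Cxcr7 to 0.17. The scanner software's log ratios, and equally the series table, called 7 receptors higher and 1 leukocyte marker lower and put Ccl11 at -0.0046. Probes above background on all 10 arrays gave 6 receptors higher and 1 lower of 10, and 19 leukocyte markers higher of 30; in these counts fewer genes were tested. An offset of 10 and no filter on dim probes each gave 1 receptor lower. Without sham 3 and PPE 2, 2 genes were lower and 0 receptors. Averaging the probes of a gene gave 0 signalling genes lower, and the red channel alone 2. Quantile scaling of average brightness leaves ratios unchanged by construction. With the replicate number as a block, 33 genes were higher and 3 lower (receptors 11 and 1; all genes 3022 and 2283). Arrays of the same number did not deviate together for every number (correlations from -0.30 to 0.52, and only number 5 matched best with its own), so the samples share only a number. Values near 0 changed sign: leaving out 1 array at a time, Ccr8 ran from -0.011 (without sham 1) to 0.26 and Ccl25 from -0.073 to 0.084, and Ccl25 was -0.047 with slide as a fixed block, -0.000915 as a random block, and -0.061 without both arrays numbered 5. The causes were not tested. Blocks for scan day, slide as a random block, the red channel and leaving out pairs of arrays were chosen after seeing the data. Signal over background limits the dimmest probes: 10 of the 58 genes could not be tested.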
